A study of Mus musculus with 4 samples.

Results

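The genes described here are 9 genes of red blood cells measured in RNA of whole mouse limbs: the embryonic globins Hbb-y, Hbb-bh1 and Hba-x, the haem enzymes Alas2 and Alad, the membrane transporter Slc4a1, the transcription factors Klf1 and Gata1, and the transferrin receptor Tfrc. They were listed by name as an erythroid set, and all 9 have a probe set among the 16492 that were tested. Limbs of C57BL/6 embryos at E12.5 were compared between SHOX transgene carriers and wildtype littermates, with 2 arrays of each genotype. Each array held RNA pooled from 2 to 4 littermates, and fore- and hindlimbs were combined. In the transgenic mice a human SHOXa cDNA is driven by the rat Col2a1 promoter and enhancer, which act in cartilage precursors, and the construct also carries a globin splicing sequence. It was injected into C57BL/6 x DBA/2 hybrid eggs, founders were mated to C57BL/6 mice, and which transgenic line gave the arrayed limbs is not given in the sources used here. The array titles share a suffix between 1 transgenic and 1 wildtype array each, and these pairs are taken as the study's 2 experiments and called experiments 1 and 2, with no order implied.

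Red blood cells are carried into the developing limb by its vessels, and limb RNA therefore holds their transcripts, although Alad and Tfrc are made by other cells too. At this stage most circulating red cells of the mouse are nucleated primitive erythroblasts from the yolk sac, which are later replaced by cells made in the fetal liver. Primitive erythroblasts make the embryonic beta-like chains encoded by Hbb-y and Hbb-bh1 and the alpha-like zeta chain encoded by Hba-x, and they need haem and iron to fill these chains. In RNA of a whole tissue, fewer red cells and less RNA in each red cell cannot be told apart.

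The upstream sequences of 4 members are shown because these genes behaved differently on the arrays. Between the experiments the globin gene Hba-x passed the test and Hbb-y did not, although neither outcome held in every fit. Alas2 and Alad, which encode consecutive haem enzymes, differed between the experiments in opposite directions. Each sequence is the 250 bases before the annotated start of transcription, read 5′ to 3′ from RefSeq on build GRCm38.p6. Such an entry was found for 7 of the 9 members. Capitals mark matches on either strand to a GATA motif (the letters AGATAA or else AGATAG, as well as TGATAA and also TGATAG), to the CACCC motif (CCNCNCCC), the CCAAT box, or a TATA-like motif (the letters TATAAA and also ATAAAA). The first is recognised by GATA factors and the second by KLF factors. Hba-x lies at chr11:32276350-32276599, plus strand. Hbb-y lies at chr7:103853208-103853457, minus strand. Alas2 lies at chrX:150547167-150547416, plus strand. Alad lies at chr4:62520064-62520313, minus strand, for the outer of its annotated starts.
Hbb-y: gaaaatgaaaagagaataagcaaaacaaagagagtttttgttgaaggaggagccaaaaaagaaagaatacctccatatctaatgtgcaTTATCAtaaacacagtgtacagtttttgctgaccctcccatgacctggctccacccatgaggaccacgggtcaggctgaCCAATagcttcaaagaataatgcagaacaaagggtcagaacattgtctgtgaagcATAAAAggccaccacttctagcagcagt
Hba-x: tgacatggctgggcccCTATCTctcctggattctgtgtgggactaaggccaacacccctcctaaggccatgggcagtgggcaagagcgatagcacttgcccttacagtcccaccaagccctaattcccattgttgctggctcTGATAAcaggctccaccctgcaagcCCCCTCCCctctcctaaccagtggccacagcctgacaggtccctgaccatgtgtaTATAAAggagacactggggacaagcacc
Alas2: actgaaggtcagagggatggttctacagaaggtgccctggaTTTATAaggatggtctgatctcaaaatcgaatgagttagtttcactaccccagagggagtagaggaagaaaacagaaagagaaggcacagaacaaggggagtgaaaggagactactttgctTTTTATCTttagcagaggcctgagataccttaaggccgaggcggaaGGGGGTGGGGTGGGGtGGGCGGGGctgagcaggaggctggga
Alad: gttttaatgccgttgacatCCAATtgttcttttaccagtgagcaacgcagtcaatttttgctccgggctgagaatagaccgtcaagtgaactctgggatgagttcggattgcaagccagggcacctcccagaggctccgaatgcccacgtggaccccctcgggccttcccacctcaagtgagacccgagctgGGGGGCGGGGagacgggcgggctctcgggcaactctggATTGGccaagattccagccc

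The Hbb-y window held 1 GATA match, the Hba-x window 2 and the Alas2 window 1, and both Alad windows held 0. Of 32851 windows of this length in the same table, 26.5% held a GATA match, 45.9% a CCNCNCCC match, 33.8% CCAAT and 22.8% a TATA-like match. Both globin windows had a TATA-like match that began 28 bases before the start. Matches to CCNCNCCC numbered 1 in Hba-x, 4 in Alas2, 2 in the Alad window shown and 0 in Hbb-y. Some of those of Alas2, and both of Alad, overlap each other. The shorter letters CACCC were not searched for, and they also occur unmarked in the Hbb-y and Hba-x windows. The longer pattern also takes in letters without CACCC, as in Alad. In Alas2 the GATA match also overlaps a TATA-like match. The Klf1 window held 1 GATA match, while those of Gata1 and Tfrc held 0. These are letter matches and not binding sites, and a link between them and the array values was not tested.

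Within each experiment the arrays of both genotypes resembled each other more (Pearson's r of 0.997 and 0.998 over all probe sets, which cannot count as replicates) than did the 2 arrays of 1 genotype (0.986 for transgenic and 0.987 for wildtype). The values are log2 expression values as deposited, so a difference of 1 is a 2-fold change. Signal over background is not known for these values, and precision is limited by having 4 arrays. Of genes that mark limb mesenchyme all 16 listed were measured, with mean log2 values of 7.60 to 11.3, among them Prrx1 with 10.3 and Pdgfra with 11.3. The 7 hepatocyte genes, among them Alb and Afp, had mean log2 values of 5.75 to 6.94. Transgenic and wildtype arrays also differed in Xist, the RNA of the inactive X chromosome, by -2.99 on the log2 scale, and in the Y-linked Eif2s3y by 0.83. Alas2 and Gata1 lie on the X chromosome. The part of the Xist and Eif2s3y differences in the results below was not tested.

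No erythroid gene was called for genotype in limma with genotype as the only term. That fit counts the difference between the experiments as spread between replicates. At an adjusted p of 0.05 this fit called 0 of the 9 members and 0% of all probe sets, and at a log2 difference beyond 0.2 with an unadjusted p under 0.05 it called 0 members (0 at an unadjusted p under 0.05 alone, as against 32 of all probe sets), beside 0.133% of all probe sets higher and 0.0546% lower. The adjusted p was 1 for all 9 members. Blocking on the experiment compares the genotypes within each experiment. Then 4 of the 9 members had an unadjusted p under 0.05, as did 1306 of the 16492 probe sets. Both limits were passed by 2 members, Hba-x and Alad, which were lower in transgenic limbs. The blocked fit called 1.23% of all probe sets higher and 0.321% lower by that rule. At an adjusted p of 0.05 it called 0 members and 0.273% of all probe sets. Only 1 residual degree of freedom is left in that fit, and limma adds 16.4 from the spread of other probe sets.

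**Figure D1:**
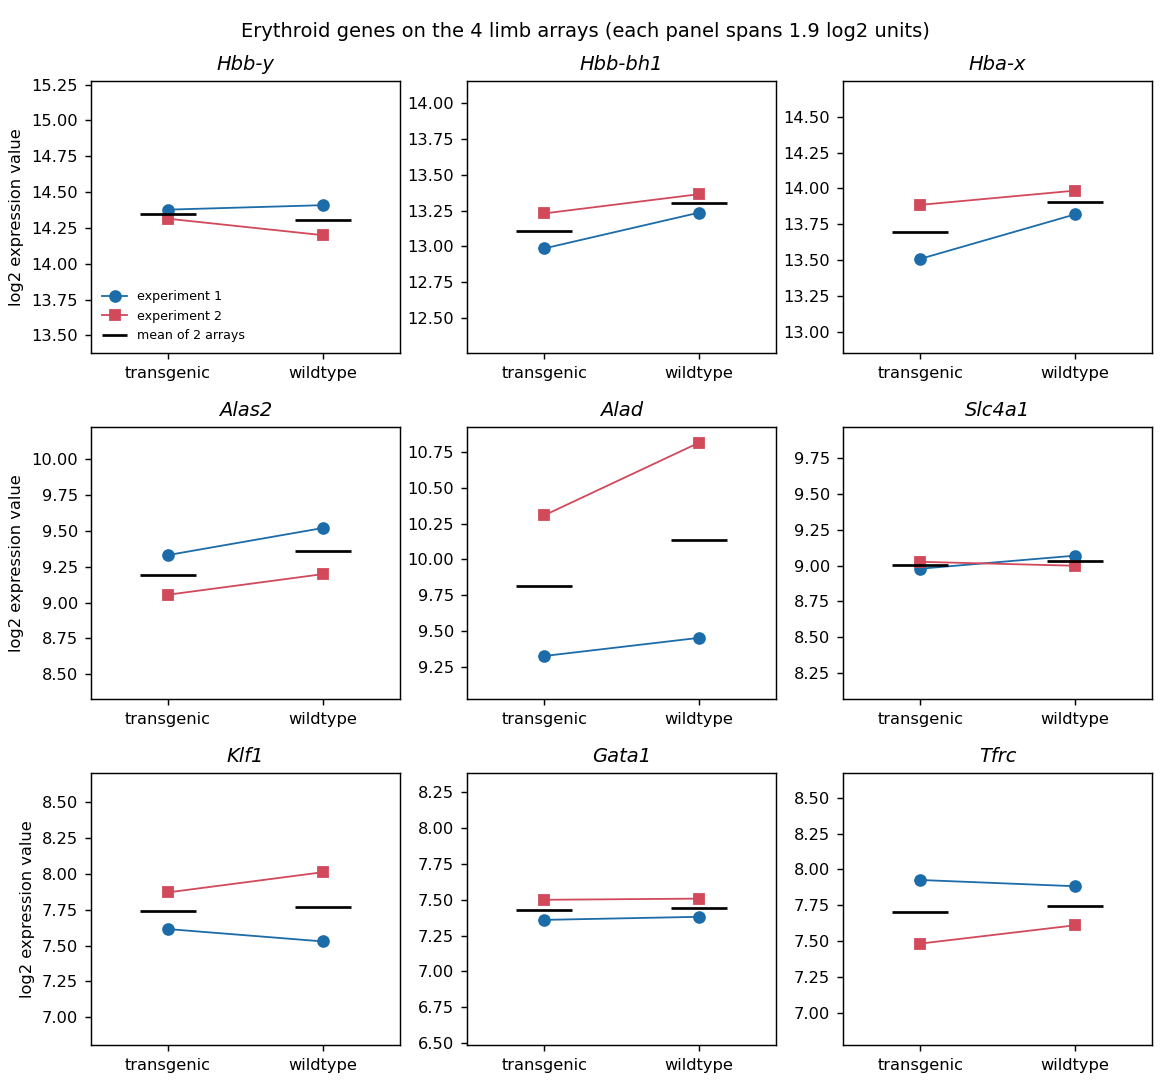
Log2 expression values of the 9 erythroid genes on the 4 arrays, with transgenic limbs on the left and wildtype limbs on the right of each panel. Lines join the arrays of 1 experiment and black bars are means of 2 arrays. The experiments stand apart most in Alad, where experiment 2 had 10.3 and 10.8 and experiment 1 had 9.33 and 9.45.

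Among the globins, Hbb-bh1 and Hba-x were lower in the transgenic array of both experiments, while Hbb-y was not. Hbb-bh1 encodes the early beta-like chain of primitive erythroblasts. It had log2 values of 12.99 and 13.23 in transgenic limbs of experiments 1 and 2, against 13.24 and 13.36 in wildtype limbs. It was the only member whose genotype groups did not overlap, both transgenic arrays lying below both wildtype arrays, as did 12.7% of all probe sets. The distance between the closer arrays, 13.23 and 13.24, was far smaller than the difference between replicates. The log2 difference was -0.19 (standard error 0.12 in limma without the block, unadjusted p = 0.172). With the block the standard error was 0.06 and the 95% interval ran from -0.32 to -0.07 (adjusted p = 0.286 from limma).

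Hba-x encodes the zeta chain, the alpha-like partner in embryonic haemoglobin. It had log2 values of 13.51 and 13.89 in transgenic limbs of experiments 1 and 2, against 13.82 and 13.98 in wildtype limbs. The groups overlapped, because the transgenic array of experiment 2 was above the wildtype array of experiment 1. Experiment 1 gave a log2 difference of -0.31 and experiment 2 of -0.10, for a mean of -0.20 (95% interval from -0.34 to -0.07 in limma with the block, adjusted p = 0.279). Without the block the interval ran from -0.62 to 0.21.

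Hbb-y encodes the epsilon-type beta-like chain, which follows Hbb-bh1 as primitive erythroblasts mature. It had log2 values of 14.38 and 14.31 in transgenic limbs of experiments 1 and 2, against 14.41 and 14.20 in wildtype limbs. The transgenic values lay between the wildtype values. Experiment 1 gave a log2 difference of -0.03, experiment 2 one of 0.11, and their mean was 0.04 (95% interval from -0.09 to 0.17 with the block, adjusted p = 0.93 from limma). It was -0.02 when the arrays were quantile normalized once more, so no direction is given for it. Hbb-y was among the 4 highest probe sets on each array, between 0.06 and 0.24 below the array's highest value on the log2 scale. Hba-x ranked 9th and 17th on the transgenic arrays and 7th and 10th on the wildtype arrays, and Hbb-bh1 ranked 27th and 43rd on the transgenic and 18th and 29th on the wildtype arrays. Quantile normalization gives the top ranks of all arrays like values, and whether these spots were near saturation is not known from the deposited values.

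The haem enzymes were lower in the transgenic array of both experiments. Alas2, the erythroid form of the enzyme that starts haem synthesis, had log2 values of 9.33 and 9.05 in transgenic limbs of experiments 1 and 2, against 9.52 and 9.20 in wildtype limbs. Within each experiment the transgenic array was the lower of the pair, but the groups overlapped. The log2 difference was -0.17 (95% interval from -0.29 to -0.04 with the block, adjusted p = 0.389 from limma), with -0.19 and -0.14 in experiments 1 and 2. Alad encodes the enzyme of the next step, which joins pairs of aminolevulinate molecules, and unlike Alas2 it is made in all cells. Alad had log2 values of 9.33 and 10.31 in transgenic limbs of experiments 1 and 2, against 9.45 and 10.81 in wildtype limbs. Both arrays of experiment 2 were above both of experiment 1, whatever the genotype. Its log2 difference between genotypes was -0.32, the largest of the members in size. Experiment 1 gave -0.13 and experiment 2 gave -0.51. With the block the interval ran from -0.47 to -0.16 (adjusted p = 0.108 from limma), and without it from -1.84 to 1.21, the experiments being further apart than the genotypes.

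The remaining 4 members gave genotype differences within 0.05 of 0 on the log2 scale. Slc4a1 encodes band 3, the anion exchanger that anchors the red cell membrane to its skeleton. It had log2 values of 8.98 and 9.03 in transgenic limbs of experiments 1 and 2, against 9.07 and 8.999 in wildtype limbs. The 4 values spanned 0.09 on the log2 scale, a narrower span than that of any other member, and the genotypes overlapped. The difference was -0.03 with an interval from -0.16 to 0.09 in the blocked fit (adjusted p = 0.943 from limma).

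Klf1 encodes the erythroid Krüppel-like factor that activates beta-like globin genes. Its log2 values were 7.62 and 7.87 in transgenic limbs of experiments 1 and 2, against 7.53 and 8.01 in wildtype limbs, so the transgenic array was the higher in experiment 1 and the lower in experiment 2. The log2 difference was -0.03 (interval from -0.16 to 0.11, adjusted p = 0.955 from limma with the block). Gata1 encodes the zinc finger factor needed for red cells to mature. It had 7.36 and 7.50 in transgenic limbs of experiments 1 and 2, against 7.38 and 7.51 in wildtype limbs. The arrays of each experiment were within 0.03 of each other on the log2 scale, and the genotype difference was -0.01 (interval from -0.14 to 0.11, adjusted p = 0.973 from the same fit). Tfrc encodes the receptor that brings iron-loaded transferrin into cells, is highest in erythroblasts and is also made by other dividing cells. It had 7.93 and 7.48 in transgenic limbs of experiments 1 and 2, against 7.88 and 7.61 in wildtype limbs. Its difference was 0.04 in experiment 1 but -0.13 in experiment 2, and the mean was -0.04 (adjusted p = 0.931 from limma with the block).

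**Figure D2:**
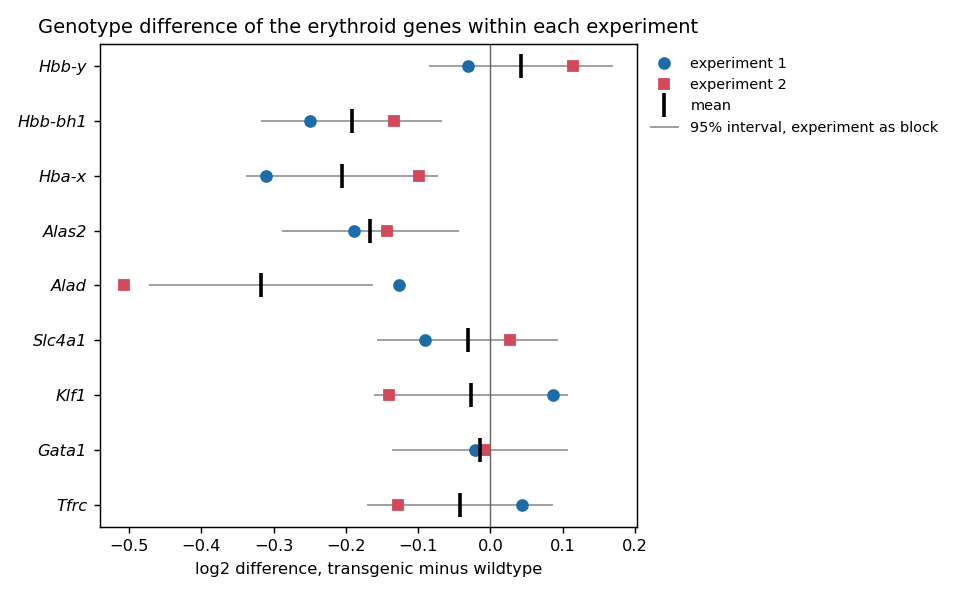
Log2 difference of transgenic minus wildtype limbs for each erythroid gene, with a circle for experiment 1, a square for experiment 2, a black bar for the mean and a grey line for the 95% interval from the blocked limma fit. The intervals of Hbb-bh1, Hba-x, Alas2 and Alad lie below 0 before adjustment over all probe sets, and those of the other 5 genes cross 0.

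Over the 9 members the median log2 difference between genotypes was -0.04, beside -0.01 over all probe sets. Of the members 5 were lower in transgenic limbs in both experiments (Hbb-bh1, Hba-x, Alas2, Alad and Gata1) and 0 were higher in both, where 30.5% of all probe sets were lower in both and 22.4% higher in both. As these counts come from 9 genes that share the same 4 arrays, they are given as a description.

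Genes with related roles showed no call for genotype in either fit at either threshold. Of 18 listed genes of haem synthesis and its mitochondrial transport 16 were measured, with a median log2 difference of -0.04. Of 22 listed genes of the red cell membrane and skeleton 19 were measured, with a median of -0.02. Slc2a1, the glucose transporter, had the largest difference of that list, 0.15 (adjusted p = 0.46 in the blocked limma fit), and Sptb, the beta-spectrin of red cells, had -0.12 (adjusted p = 0.618 from the same fit). All 16 other erythroid transcription factors were measured, with a median of -0.04, and Gata2, the factor that precedes Gata1 in progenitors, had 0.18 (adjusted p = 0.46). By fold and unadjusted p in the blocked fit these 3 lists held 0 called genes, beside 2 of the 9 members and, over all probe sets, 1.23% higher and 0.321% lower.

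Of 14 listed genes of iron uptake and storage 11 were measured, with a median log2 difference between genotypes of -0.01. Slc40a1, the iron exporter ferroportin, had log2 values of 8.34 and 8.04 in transgenic limbs of experiments 1 and 2, against 8.15 and 7.86 in wildtype limbs. It was the higher of the pair in each experiment, by 0.18 on average (adjusted p = 0.303 from limma with the block). Of 13 listed genes of erythropoietin and stem cell factor signalling 10 were measured, with a median of -0.0026, and Epor, the erythropoietin receptor, had -0.13 (adjusted p = 0.608). Of 35 other red cell proteins 29 were measured, with a median of -0.04. Among the 29, 15 were lower in both experiments and 4 higher in both, beside 30.5% and 22.4% of all probe sets. The 8 genes of haem breakdown had a median of -0.02. Of 13 other globin genes listed, Mb, Cygb and Ngb were measured, with a median of 0.0038, and the adult alpha- and beta-globin genes were not analysed here.

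Among lists of other cells, the 10 measured genes of megakaryocytes and platelets had a median log2 difference between genotypes of -0.04. Of these, 1 was higher and 5 were lower in transgenic limbs of both experiments, and Pf4, platelet factor 4, had -0.09. The 16 endothelial genes had a median of 0.05, with 9 higher and 0 lower in transgenic limbs of both experiments. The 13 measured macrophage genes also had a median of 0.05, with 7 higher and 2 lower in both experiments. The 10 measured genes of blood progenitors and other white cells had -0.01, with 2 higher and 3 lower in both. None of the genes of these 4 lists was called for genotype. In limb mesenchyme genes the median was -0.06, with 11 of 16 lower in both experiments. In 15 cartilage genes it was 0.14, with 11 of 15 higher in both. The 7 hepatocyte genes, which had low values, had a median of -0.08, with 3 lower and 0 higher in both. Beside such counts, 22.4% of all probe sets were higher and 30.5% lower in both experiments. By fold and unadjusted p, 1 cartilage gene was called higher without the block, and with it 6 cartilage genes were higher and 1 mesenchyme gene lower. Over all probe sets 0.133% were called higher without the block, and with it 1.23% higher and 0.321% lower. On the log2 scale, endothelial genes averaged 8.27 and 8.33 in transgenic limbs of experiments 1 and 2, against 8.27 and 8.26 in wildtype limbs. Cartilage genes averaged 8.62 and 8.68 in transgenic limbs of experiments 1 and 2, against 8.50 and 8.44 in wildtype limbs. The part of these cells in the erythroid values was not tested.

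For 7 of the 9 members the difference between the experiments was larger in size than that between the genotypes, the exceptions being Hbb-bh1 (0.19 between experiments and -0.19 between genotypes) and Slc4a1 (-0.01 and -0.03). Limma with the experiment as the only term called 3 of the 9 members higher in experiment 2, Hba-x, Alad and Klf1, and 2 lower, Alas2 and Tfrc, at an adjusted p of 0.05. Beside these counts, 18.7% of all probe sets were called higher and 17.4% lower by the same rule. The same 5 members also passed a log2 difference beyond 0.2 with an unadjusted p under 0.05, as did 15.4% of all probe sets higher and 14.7% lower. In 7 members the arrays of experiment 2 did not overlap those of experiment 1, 4 of them higher and 3 lower in experiment 2, beside 34.5% and 31.9% of all probe sets. What set the experiments apart is not stated in the labels or methods.

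Alad, the aminolevulinate dehydratase gene, averaged 10.56 ± 0.36 on the log2 scale in experiment 2 and 9.39 ± 0.09 in experiment 1 (SD, n = 2 each), a 2.25-fold difference. The log2 difference was 1.17 (standard error 0.12, adjusted p = 1.6e-05 from limma with experiment as the only term), made up of 0.98 in transgenic and 1.36 in wildtype limbs. Its range over the 4 arrays, 1.49, was larger than that of 99.9% of all probe sets. Klf1, the globin activator, averaged 7.94 ± 0.10 in experiment 2 and 7.57 ± 0.06 in experiment 1 (SD, n = 2 each), a log2 difference of 0.37 (adjusted p = 0.00077 from limma). Gata1, its partner factor, was higher by 0.13 in experiment 2, with all 4 arrays apart by experiment but an adjusted p of 0.0853 from limma. The SDs of Alad and Klf1, and those of Alas2 and Tfrc below, are between the transgenic and the wildtype array of an experiment. They therefore include the genotype difference.

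Alas2 and Tfrc ran the other way. Alas2, the erythroid synthase, averaged 9.13 ± 0.10 in experiment 2 and 9.43 ± 0.13 in experiment 1 (SD, n = 2 each), a log2 difference of -0.30 (adjusted p = 0.00661 from limma). Tfrc, the iron uptake receptor, averaged 7.55 ± 0.09 in experiment 2 and 7.90 ± 0.03 in experiment 1 (SD, n = 2 each), a log2 difference of -0.36 (adjusted p = 0.000703 from limma). Both genes were lower in experiment 2 in transgenic and in wildtype limbs alike. Alas2 no longer passed without wildtype replicate 1 (adjusted p = 0.0839 from limma) or without transgenic replicate 2 (adjusted p = 0.0571).

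The globins did not move together between the experiments. Hba-x was higher in experiment 2 by 0.27 on the log2 scale (adjusted p = 0.026 from limma), a call that was lost without transgenic replicate 1, when the difference was 0.12 (adjusted p = 0.319), and without wildtype replicate 2, when it was 0.22 (adjusted p = 0.125). Hbb-bh1 was higher by 0.19 (adjusted p = 0.0897, and 0.0179 with genotype as a block), and its experiments overlapped. It was 0.06 without transgenic replicate 1 and 0.31 without wildtype replicate 1 (adjusted p = 0.642 and 0.0154 from limma), and 0.26 with a second quantile normalization (adjusted p = 0.0335). Hbb-y was lower in experiment 2 by 0.14 (adjusted p = 0.103 from limma, and 0.0479 once the arrays were centred on a common median). Its difference was -0.07 with a second quantile normalization (adjusted p = 0.345 from limma). With 1 array left out it ran from -0.19 to -0.08. Slc4a1, the band 3 gene, differed by -0.01 between the experiments, with an interval from -0.14 to 0.12. Its level in transgenic limbs was higher by 0.05 in experiment 2, and in wildtype limbs it was lower by 0.07.

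**Figure D3:**
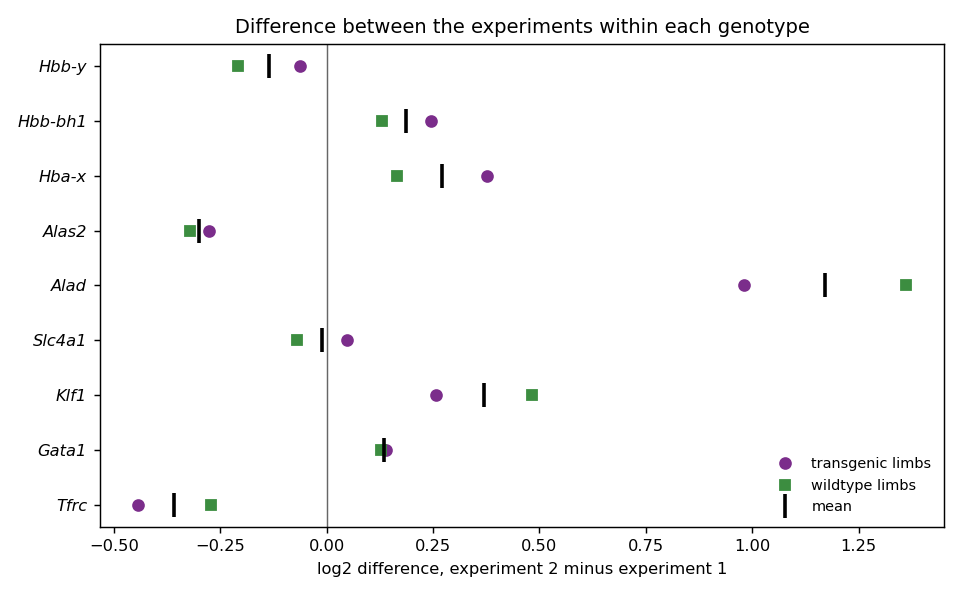
Log2 difference of experiment 2 minus experiment 1 for each erythroid gene, with a circle for transgenic limbs, a square for wildtype limbs and a black bar for the mean. Alad lies farthest from 0, at 1.17, Alas2 and Tfrc lie below 0 in both genotypes, and Slc4a1 has 1 genotype on each side of 0.

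Genes of haem synthesis went in both directions between the experiments, as did all probe sets, of which 18.7% were called higher and 17.4% lower. Of the 16 other measured genes of this pathway 8 were higher and 4 lower in experiment 2 at an adjusted p of 0.05 from limma. Alas1, the synthase of non-erythroid cells, was higher by 0.31 on the log2 scale where Alas2 was lower by 0.30. Cpox and Ppox, the oxidases of later steps, were higher by 0.43 and 0.50, with adjusted p-values of 0.000374 and 7.5e-05 from limma. Urod, which acts between them and Alad, was lower by 0.22 (adjusted p = 0.0142), and Fech, which inserts the iron, had -0.15 and an adjusted p of 0.0688. Of the mitochondrial carriers, Slc25a39 was higher by 0.53 and Slc25a37, the iron carrier mitoferrin, by 0.35, both called by limma.

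**Figure D4:**
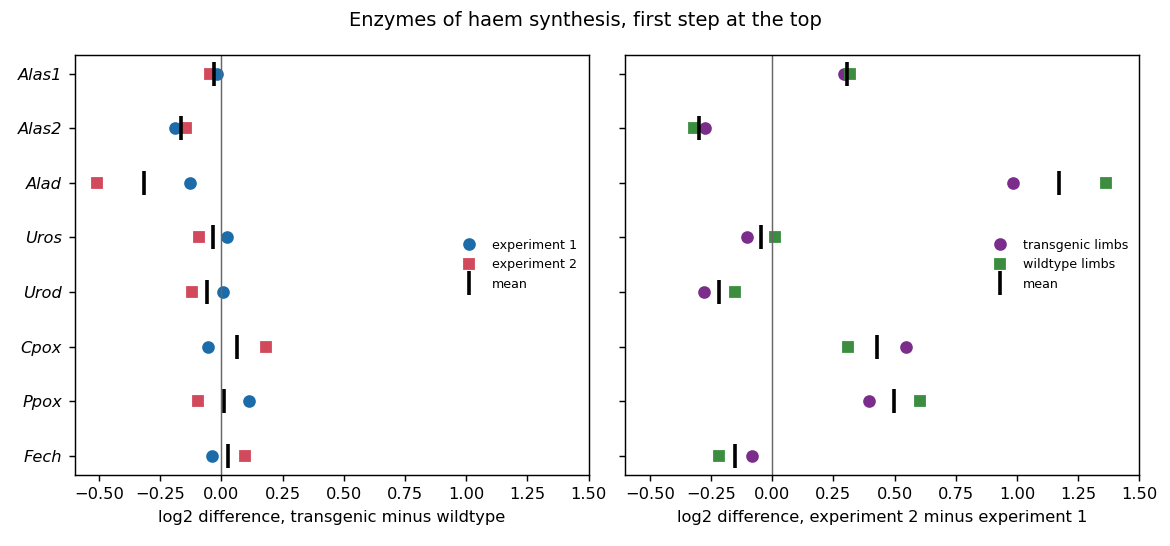
Log2 differences of 8 enzymes of haem synthesis in pathway order, between genotypes on the left (circle experiment 1, square experiment 2) and between experiments on the right (circle transgenic, square wildtype), with black bars for means. Genotype differences of the enzymes other than Alad stay within 0.2 of 0, while experiment differences run from -0.30 for Alas2 to 1.17 for Alad.

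Of the 29 measured other red cell proteins 9 were higher and 8 lower in experiment 2 at an adjusted p of 0.05 from limma. These counts and those below stand beside 18.7% of all probe sets called higher and 17.4% lower. Hemgn, which encodes hemogen of blood-forming cells, was higher by 0.998 on the log2 scale, averaging 8.13 in experiment 2 and 7.13 in experiment 1. Its arrays separated by experiment as those of Alad did. Cited2 and Slc43a1, a coactivator and an amino acid transporter, were higher by 0.58 and 0.55. Of 19 membrane and skeleton genes 7 were higher and 1 lower, among them Add1, the alpha-adducin gene, with 0.49 and Rhag, the Rh-associated glycoprotein gene, with 0.29. Of 16 other erythroid transcription factors 6 were higher and 2 lower, with Bcl11a, a repressor of embryonic globin genes, higher by 0.49 and Ldb1, a cofactor of Gata1, by 0.43.

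Of the 11 measured iron genes 3 were higher and 2 lower in experiment 2, beside the same 18.7% and 17.4% of all probe sets. Snx3, which recycles the transferrin receptor, was higher by 0.37 and Slc40a1 lower by 0.29. Of 10 signalling genes 3 were higher and 1 lower, and Pim1, a kinase gene induced by erythropoietin, was higher by 0.40. Among 8 genes of haem breakdown 1 was higher and 4 were lower. Hmox1, the haem oxygenase gene, was lower by 0.41 and Blvra, which encodes a biliverdin reductase, by 0.38 (adjusted p = 0.000164 and 0.000418 from limma). The 3 other globin genes split, with Cygb called higher and Mb called lower.

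Counts for genes of other cell types stand beside the 18.7% of all probe sets called higher and 17.4% called lower in experiment 2. All 13 measured macrophage genes were lower in experiment 2, 11 of them at an adjusted p of 0.05 from limma, with a median log2 difference of -0.30 and -0.46 for Mrc1. The list averaged 7.70 and 7.61 in transgenic and wildtype limbs of experiment 2, against 7.94 and 7.92 in experiment 1 on the log2 scale. Of 16 endothelial genes 5 were called higher and 3 lower, from 0.63 for Plvap to -0.63 for Pecam1, and of 10 megakaryocyte and platelet genes 2 were higher and 1 lower. Of 10 genes of blood progenitors and white cells 1 was higher and 2 were lower. Of 16 limb mesenchyme genes 9 were higher and 1 lower, of 15 cartilage genes 3 were higher and 3 lower, and of 7 hepatocyte genes 1 was lower. Their part in the erythroid differences was not tested.

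The genes whose 4 array values were most like those of Alad and Klf1, the members with the widest ranges, were found from the distance between log2 values centred on each gene's mean. For Alad the 5 nearest named genes were Hsd11b2, Snai1, Hand2, Pdxp and Hemgn, at distances of 0.23, 0.25, 0.33, 0.36 and 0.38 on the log2 scale. All 5 were higher in experiment 2, by 0.94 to 1.16, and lower in the transgenic array of both experiments. For Klf1 the 5 nearest were Fam160a2, Kctd6, Nle1, Ttc39c and Sfi1, at distances of 0.02 to 0.03. With 4 arrays, many genes come this close to a given pattern, so these names are a description.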

How the data were processed

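Limb RNA of 2 transgenic and 2 wildtype pools at E12.5 was measured on Affymetrix mouse genome arrays. The authors log transformed the perfect-match values, quantile normalized them in JMP Genomics and grouped probes by a custom chip definition based on Entrez genes, and the deposited values are on a log2 scale. In their own analysis they fitted log-linear mixed models with probe and genotype as constant terms and the sample as random. It is not stated whether the deposited values come from that model, nor which genome build was used. After 64 control probe sets were left out, 16492 were tested, of which 15270 carry a symbol in the platform annotation and 1222 are left unnamed. Members and gene lists were chosen with earlier results of these data known. Some genes, such as Cpox and Tal1, are on several lists and are counted in each.

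Genotypes, and separately experiments, were compared with limma 3.58.1 in R 4.3.3 (lmFit and eBayes, Benjamini-Hochberg over all probe sets), in a script tested on simulated data. Same-numbered arrays deviated together from their group means (r = 0.857 across probe sets), and their titles share a suffix that was read as the experiment, which the labels do not state, so fits with that block were added. The p-values measure no spread beyond that between these pools, and limma estimates part of it from other probe sets. Without a block, 2 residual degrees of freedom are left. To these limma added 2.4 in the genotype fit and 10.4 in the experiment fit. Named genes are the members, for each list up to 4 genes with the largest absolute difference in each comparison, and those nearest in pattern. Alas1, Uros, Urod, Fech, Alb, Prrx1 and Pdgfra fall outside that rule and were named for their roles after their values were seen. The alternatives tried were a second quantile normalization, centring of arrays, leaving out dim probe sets, an intensity trend, an unmoderated fit, other fold limits and leaving out each array.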

Additional observations from a re-analysis of the deposited data

How the results depend on the processing

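The count of members lower in transgenic limbs, 0 in limma without a block, was 2 with the experiment as replicate block (Hba-x and Alad) and ran from 0 to 1 with each array left out (Hba-x without transgenic replicate 2). The blocked fit called 256 probe sets by that rule against 31 without it. The genotype difference of Hbb-y turned to -0.022 when quantile normalized again, and with 1 array left out it ran from -0.063 to 0.15. In such fits the genotypes are no longer balanced over the experiments, and Alad ran from -0.998 to 0.36, Klf1 from -0.27 to 0.21, Tfrc from -0.26 to 0.18, Gata1 from -0.085 to 0.055 and Slc4a1 from -0.067 to 0.0036. Hbb-bh1, Hba-x and Alas2 stayed below 0, from -0.31 (without transgenic replicate 2) to -0.07 (without transgenic replicate 1), from -0.39 to -0.016 (without the same arrays), and from -0.33 (without wildtype replicate 2) to -0.0054 (without wildtype replicate 1).

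Between experiments, the members called higher numbered 3, and 5 or 1 with the fold limit at 0.1 or 0.4, and those called lower numbered 2, and 0 at 0.4. With probe sets below the 50th percentile of mean signal left out, which drops Klf1, Gata1 and Tfrc, 1 was lower by either rule. Without moderation, 0 passed the adjusted threshold in either direction and 1 was lower by fold and unadjusted p. With 1 array left out, 2 to 4 were higher by either rule, and 1 to 2 were lower at the adjusted p. Slc4a1 ran from -0.057 to 0.034. The block changed the call of Hbb-bh1 between experiments and no other member's. Apart from the blocked genotype fit, the share of all probe sets called under these settings is not given here. The counts therefore describe the members only. The signal over background of each probe set is not known here.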
